A study of Mus musculus with 3 samples.

Results

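Pericentral hepatocytes were described in 3 single-cell RNA libraries of mouse liver. Hepatocytes were barcodes with 3 to 30% of their unique molecular identifiers (UMIs, 1 per captured RNA molecule) in mitochondrial genes, at least 20 UMIs over Alb, Apob and Cps1, and none in Ptprc, Cd3e, Cd79a, Ptprb, Krt19 or Col3a1. In each library they were ranked by a zone score, the natural log of the UMIs plus 1 of 7 pericentral genes (Glul, Oat, Slc1a2, Cyp2e1, Cyp1a2, Cyp2c29, Gulo) over the UMIs plus 1 of 7 periportal genes (Cyp2f2, Hal, Sds, Pck1, Gls2, Hsd17b6, Aldh1b1), and the members were chosen by this score as its upper tertile, 1 in 3 cells. This gave 1464 cells among 4395 hepatocytes and 36990 barcodes in all. They were 387 of 1161 hepatocytes in the library labelled CON, 278 of 835 in HFD and 799 of 2399 in CCL4.

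All mice were wild-type males of the C57BL/6 strain aged 8 weeks at the start, and each library pooled hepatocytes and nonparenchymal cells, mixed 1:1 after collagenase perfusion, from 2 mice. CON came from untreated mice, and HFD from mice fed a diet with 60% of its energy as fat for 4 months. CCL4 came from mice kept on chow for 3 months and then injected intraperitoneally with 0.1 mL of 10% carbon tetrachloride, a liver toxin, 2 times a week for 4 weeks. The libraries held 49613255 UMIs in 11245 barcodes for CON, 34985786 in 12984 for HFD and 34061186 in 12761 for CCL4. With 1 library per condition there was no replicate, no test across samples could be made, and library, mice and treatment cannot be told apart. Intervals are exact 95% intervals that cover counting error only. CON and HFD shared 36 cell barcodes, CON and CCL4 49, and HFD and CCL4 52, of which none was shared among the cells described here.

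Liver lobules receive blood at the portal tracts and drain it at the central vein, and hepatocytes divide their work along that path. Hepatocytes around the central vein receive Wnt ligands from the endothelium of the vein, use β-catenin to switch on glutamine synthetase and many cytochrome P450 enzymes, and are known for detoxification, glutamine formation and bile acid synthesis. Periportal hepatocytes are known for urea formation, glucose production and the secretion of plasma proteins, and carbon tetrachloride is toxic after activation by P450 enzymes, Cyp2e1 foremost.

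The markers given for these cells are genes of the rule, so their levels are no check of the name in CON and HFD. In CCL4 most of the upper tertile did not hold more pericentral than periportal UMIs. A score above 0, with more pericentral than periportal UMIs, was found in 418 of 1161 hepatocytes in CON (36.0%, exact binomial interval 33.2 to 38.8%), in 383 of 835 in HFD (45.9%, 42.4 to 49.3%) and in 103 of 2399 in CCL4 (4.29%, 3.52 to 5.18%). The lowest score in the upper tertile was 0.386 in CON, 1.55 in HFD and −2.34 in CCL4. The first cell outside it in CON scored 0.377, whereas cells with the same score as the last member stood outside in HFD (2 cells tied) and CCL4 (5 cells tied). Within 0.25 of that limit lay 53 hepatocytes in CON, 63 in HFD and 412 in CCL4. Of the 799 cells in CCL4, 696 scored 0 or below and 88 had no pericentral UMI, with a median of 2 pericentral and 13 periportal UMIs per cell. In CON the medians were 56 and 13 UMIs, and in HFD 57.5 and 3.5 UMIs. The cells of CCL4 are therefore called its upper tertile here, and the values of its 103 cells with a score above 0 are set beside them. Counts given as split at 0 compare its cells with scores above and below 0.

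**Figure D1:**
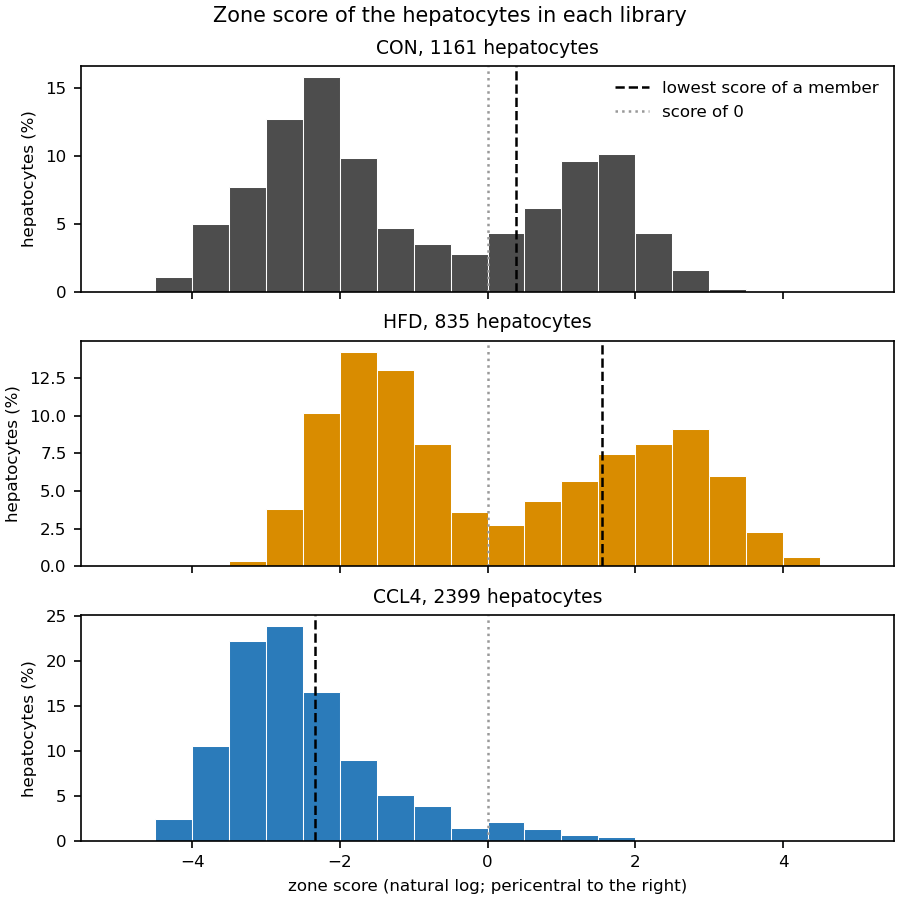
Share of hepatocytes (percent) by zone score (natural log, bins of equal width) in CON, HFD and CCL4, with the lowest score of the upper tertile as a dashed line and a score of 0 as a dotted line. CON and HFD each show a mode on both sides of 0, whereas in CCL4 the main mode lies well below 0, with a small rise from 33 cells just below 0 to 51 between 0 and 0.5, and 4.29% of the hepatocytes lie above 0.

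The rank was not needed to see this difference. Summed over all hepatocytes, the 7 pericentral genes had 1.01 UMIs per periportal UMI in CON (0.995 to 1.03), 1.82 in HFD (1.78 to 1.86) and 0.0927 in CCL4 (0.0901 to 0.0953). Over all barcodes the ratios were 0.941, 1.88 and 0.0965. T cells, which do not express these genes, gave the level of free RNA, and their ratios were 1.05, 2.12 and 0.114. Hepatocyte RNA was more abundant in the T cells of the treated libraries, with Alb at 5072 UMIs per 1000000 UMIs (CPM) in CON, 17317 CPM in HFD and 36192 CPM in CCL4. T cells also reached scores above 0, in 51.7% of 2035 cells in CON, 83.9% of 1569 in HFD and 0.590% of 1357 in CCL4. The median T cell held 12, 46 and 80 UMIs over Alb, Apob and Cps1. In the upper tertile 64 cells of CON (16.5%), 54 of HFD (19.4%) and 3 of CCL4 held fewer than 50 such UMIs, and the part of free RNA in their scores was not tested. Counts over all genes and marker sums of other cells were therefore also made over hepatocytes with at least 100 of these UMIs. So were the counts of pericentral and periportal landmarks between tertiles. This left 284, 179 and 758 cells. Counts of the other gene lists, and of any list between libraries, were not made this way.

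Genes of the rule were high or low by construction, so their levels are a description. Glul, glutamine synthetase, stood at 696 and 43.6 CPM in CON, 2307 and 84.3 CPM in HFD and 155 and 1.87 CPM in CCL4 in the upper and lower tertile. Oat, ornithine aminotransferase, stood at 2337 and 23.6 CPM in CON, 3533 and 119.7 CPM in HFD and 267 and 4.0 CPM in CCL4. Cyp2e1, the ethanol-inducible P450, stood at 3042 and 24.7 CPM in CON, 5564 and 298 CPM in HFD and 925 and 13.3 CPM in CCL4. All 3 genes were highest in HFD and lowest in CCL4, and the 103 cells of CCL4 with a score above 0 held 629 CPM of Glul, 1332 CPM of Oat and 3279.6 CPM of Cyp2e1, close to the levels of CON for Glul and Cyp2e1 and below for Oat. Cyp1a2, the P450 that metabolises caffeine, stood at 576 and 4.84 CPM in CON, 2154 and 55.1 CPM in HFD and 65.9 and 1.07 CPM in CCL4. It did not reach the level of CON in the cells of CCL4 with a score above 0, which held 184 CPM. Among the periportal genes Cyp2f2, a P450, was at 62.5 and 1223 CPM in CON, 79 and 2084 CPM in HFD and 1083 and 1360.0 CPM in CCL4, so that in CCL4 it was nearly as abundant in the upper tertile as in the lower tertile. Pck1, the first committed enzyme of gluconeogenesis, was at 1744 and 1538 CPM in CON, 824 and 2121 CPM in HFD and 2119.9 and 3447 CPM in CCL4, and in CON it was not lower in the upper tertile. Alb, albumin, was at 13339 and 35824 CPM in CON, 19172 and 55656 CPM in HFD and 56632 and 69748 CPM in CCL4, lower in the upper tertile in each library.

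The upper tertile also had fewer UMIs per cell than the lower tertile. The medians were 7133 against 11258 in CON, 3500.5 against 4412.5 in HFD and 2574 against 4323 in CCL4. The median mitochondrial share was 5.67% against 7.05%, 5.24% against 4.69% and 5.59% against 4.81%. The score came from the same cells as all other genes, so ratios between the tertiles are given as values, with no test.

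Outside the 23 genes of the rule, HFD had the most genes that differed between the tertiles and CCL4 the fewest, an order that turned with a split at a score of 0 and with another limit on the mitochondrial share. Genes with at least 20 CPM in 1 of the tertiles were compared, and a ratio of at least 1.5 or at most its inverse counted as a difference. In CON 757 of 4992 genes (15.2%) were higher and 342 (6.85%) lower in the upper tertile, in HFD 867 of 5256 (16.5%) were higher and 681 (13%) lower, and in CCL4 150 of 5003 (3%) were higher and 73 (1.46%) lower. By share the direction depended on the scaling, since scaling to the UMIs outside mitochondrial genes, the genes of the rule and the 20 most abundant genes gave 591 higher and 628 lower in CON and 814 and 1153 in HFD, which took the higher share of the differences from 68.9% to 48.5% and from 56.0% to 41.4%. This scaling lowered the median log2 ratio of all genes by 0.15 in CON and by 0.12 in HFD. Cells of CCL4 with scores above and below 0 gave 878 genes (16.5%) higher and 530 (9.95%) lower of 5329. Split the same way CON gave 646 (13.1%) and 294 (5.94%) of 4950 and HFD 689 (13.3%) and 548 (10.6%) of 5194, so that CCL4 then had the most. With a mitochondrial share of 0 to 30% CCL4 also had the most, at 422 higher and 427 lower, and HFD the fewest, at 290 and 77, with 435 and 156 in CON. Of 4378 genes compared in all 3 libraries, 70 (1.6%) were higher and 24 (0.548%) lower in each of them. Split at a score of 0 these counts were 161 and 79, and over hepatocytes with at least 100 UMIs of Alb, Apob and Cps1 they were 51 and 15. Between CON and HFD, 351 genes were higher in both, of 708 in CON and 713 in HFD, and 160 were lower in both, of 264 and 570.

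The genes with the most even excess in the upper tertile, ranked by the smallest of their 3 ratios of CPM plus 5, were led by Cyp2c P450s, enzymes that oxidise drugs and fatty acids. Cyp2c50 was at 1162 and 20.9 CPM in CON, 2004 and 150.4 CPM in HFD and 451 and 45.4 CPM in CCL4 in the upper and lower tertile. Its ratio was 55.5 (95% interval 45.3 to 68.8) in CON, 13.3 (95% interval 11.5 to 15.5) in HFD and 9.95 (95% interval 8.47 to 11.8) in CCL4. Cyp2c37 was at 549 and 3.52 CPM in CON, 863 and 22 CPM in HFD and 74.5 and 5.6 CPM in CCL4, with ratios of 156 (95% interval 95.7 to 274) in CON, 39.2 (95% interval 26.9 to 59.3) in HFD and 13.3 (95% interval 8.45 to 22) in CCL4. The lower tertiles were below the T cells for both genes, which held 83.9, 445 and 114 CPM of Cyp2c50 and 28.6, 102 and 12.5 CPM of Cyp2c37, so free RNA and expression cannot be told apart in the lower tertiles. Cyp2c54 was at 569 and 12.1 CPM in CON, 838 and 69.3 CPM in HFD and 70.2 and 5.6 CPM in CCL4, with ratios of 47, 12.1 and 12.5. Cyp2c67 was at 574 and 85 CPM in CON, 292 and 37.8 CPM in HFD and 64.3 and 19.7 CPM in CCL4, with ratios of 6.75, 7.72 and 3.26. All 4 were higher in the upper tertile of each library, and in HFD the upper tertile exceeded CON for Cyp2c37, Cyp2c50 and Cyp2c54 but not for Cyp2c67. In CCL4 cells with a score above 0 the levels were 899, 197, 148 and 122 CPM in the order of description. Genes of this family are close copies, and how reads shared between them were counted could move UMIs from one to another.

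The sequences before the start sites of Cyp2c37 and Cyp2c50 are shown because both genes run together along the score. They lie on the plus strand at chr19:39992174-39992423 and chr19:40089429-40089678 of GRCm38.p6 (RefSeq), 250 bases each, and the longest run they share, 44 bases, is in capitals. Over 260 aligned positions 220 (84.6%) were identical, against 60.3% of 282 positions between Cyp2c37 and the score gene Cyp2c29. Between Cyp2c37 and Lect2, a gene outside this family, 53.4% of 290 positions were identical.
Cyp2c37: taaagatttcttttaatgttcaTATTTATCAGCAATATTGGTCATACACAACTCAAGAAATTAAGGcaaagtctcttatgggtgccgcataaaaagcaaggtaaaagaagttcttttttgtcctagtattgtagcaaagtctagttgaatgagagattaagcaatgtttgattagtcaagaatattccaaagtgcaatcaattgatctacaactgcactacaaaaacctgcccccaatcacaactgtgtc
Cyp2c50: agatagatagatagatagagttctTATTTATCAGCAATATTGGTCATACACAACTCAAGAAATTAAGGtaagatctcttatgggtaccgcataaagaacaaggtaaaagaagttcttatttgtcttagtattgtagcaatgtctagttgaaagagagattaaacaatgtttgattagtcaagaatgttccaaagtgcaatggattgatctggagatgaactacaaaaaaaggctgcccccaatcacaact
The motif ATCAAAG, bound by the TCF factors that partner β-catenin, was searched on both strands of these 250 bases, and no overlap with another motif was considered. It stood in 1005 of 27025 promoters of the table (3.72%), in 2 of 13 matched genes among the 15 with the most even excess in the upper tertile (Lect2, Sult2a8), in 1 of 13 among the 15 with the most even deficit (Serpina12) and in 2 of 6 matched pericentral genes of the score (Slc1a2, Cyp2c29). Cyp2c29, at chr19:39286835-39287084 on the plus strand, and Lect2, at chr13:56548539-56548788 on the minus strand, are shown with the motif in capitals. A match is a description of the letters, not a binding site.
Cyp2c29: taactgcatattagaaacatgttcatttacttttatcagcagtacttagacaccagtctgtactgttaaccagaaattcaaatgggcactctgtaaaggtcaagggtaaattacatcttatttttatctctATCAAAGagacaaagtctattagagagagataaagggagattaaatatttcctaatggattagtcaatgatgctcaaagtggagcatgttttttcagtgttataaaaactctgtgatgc
Lect2: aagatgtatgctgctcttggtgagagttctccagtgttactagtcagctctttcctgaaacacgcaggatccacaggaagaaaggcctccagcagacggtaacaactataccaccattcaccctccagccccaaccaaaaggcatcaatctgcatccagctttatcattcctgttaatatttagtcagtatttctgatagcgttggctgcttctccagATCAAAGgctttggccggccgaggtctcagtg

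**Figure D2:**
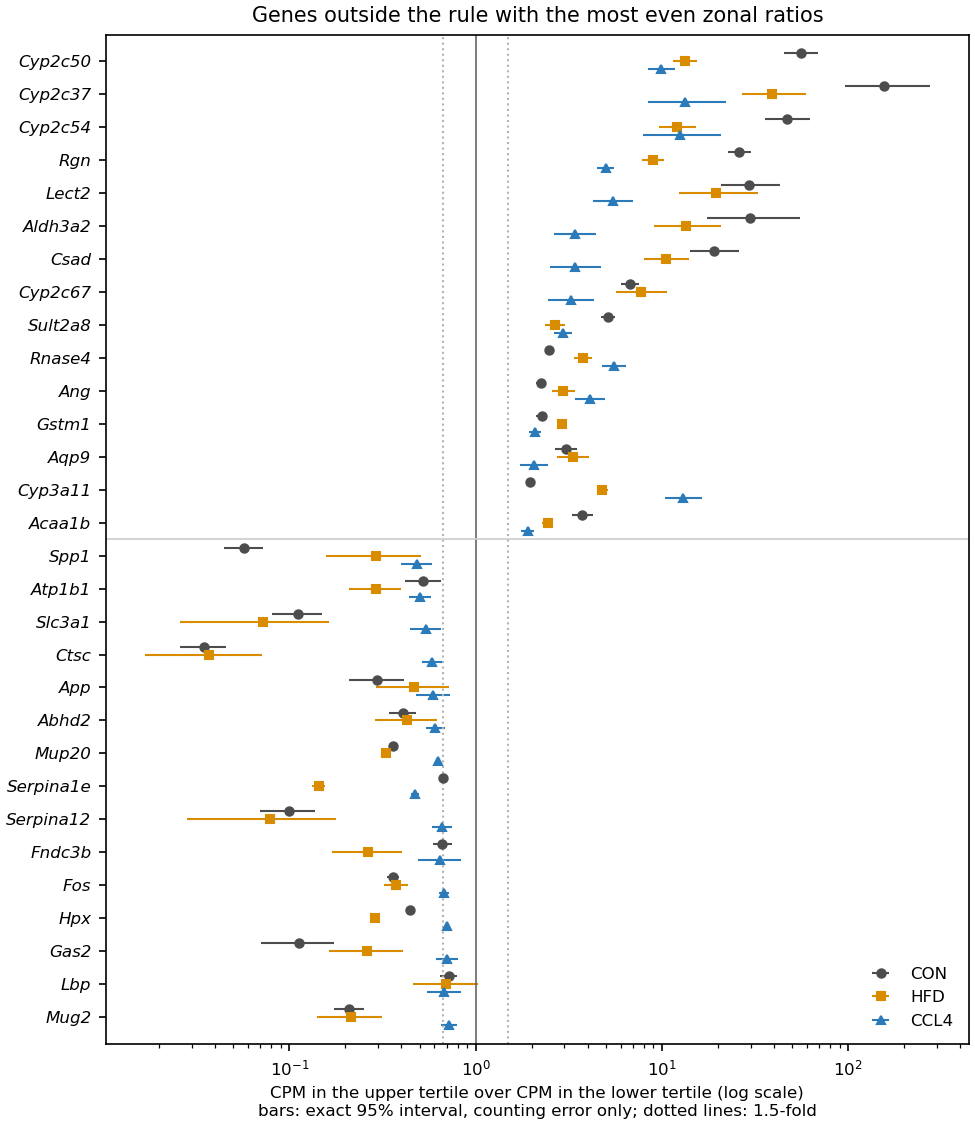
Ratio of CPM in the upper tertile over CPM in the lower tertile (log axis) for the 15 genes outside the rule with the most even excess and the 15 with the most even deficit in CON, HFD and CCL4, with bars for the 95% counting interval and dotted lines at 1.5-fold. Among the genes with an excess, Cyp2c37 has the widest spread between libraries, from 13.3 in CCL4 to 156 in CON, and for Lect2, Rgn and Cyp2c50 the order of the libraries is CON, HFD, CCL4.

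Lect2, a secreted factor of the liver and a known target of β-catenin, was at 214 and 7.27 CPM in CON, 293 and 15 CPM in HFD and 123 and 22.7 CPM in CCL4 in the upper and lower tertile, with ratios of 29.5, 19.6 and 5.44. T cells held 32.8, 102 and 70.4 CPM, more than the lower tertile in each library. Rgn, regucalcin, a lactonase of the vitamin C pathway, was at 1134 and 43.6 CPM in CON, 1766 and 197 CPM in HFD and 640.0 and 128 CPM in CCL4, with ratios of 26, 8.97 and 4.99. Both genes had their highest ratio in CON and their lowest in CCL4. Aldh3a2, which oxidises fatty aldehydes, was at 91.8 and 3.08 CPM in CON, 286 and 21.3 CPM in HFD and 77.3 and 22.7 CPM in CCL4. Csad, which forms the taurine precursor hypotaurine, was at 208 and 11 CPM in CON, 496 and 47.2 CPM in HFD and 55.6 and 16.3 CPM in CCL4. Acaa1b, a peroxisomal thiolase, was at 289.6 and 77.3 CPM in CON, 2403 and 987 CPM in HFD and 607 and 319.7 CPM in CCL4, most abundant in HFD in both tertiles.

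A second pattern was a ratio that was largest in CCL4. Cyp3a11, the main drug-metabolising P450 of its family, was at 1707 and 868 CPM in CON, 3794 and 794 CPM in HFD and 300.1 and 23.2 CPM in CCL4, with ratios of 1.97 (95% interval 1.89 to 2.05) in CON, 4.78 (95% interval 4.46 to 5.13) in HFD and 12.9 (95% interval 10.3 to 16.3) in CCL4. Its lower tertile in CCL4 stood below the 54.3 CPM of the T cells there, and the cells of CCL4 with a score above 0 held 1052 CPM. Rnase4, a secreted ribonuclease, was at 1778 and 719 CPM in CON, 1239.8 and 328 CPM in HFD and 341 and 61.4 CPM in CCL4, with ratios of 2.47, 3.79 and 5.55. Ang, angiogenin, which shares a locus and leader exons with Rnase4 so that their reads may not be fully told apart, was at 1059.9 and 474 CPM in CON, 626 and 212 CPM in HFD and 177 and 43 CPM in CCL4, with ratios of 2.24, 2.96 and 4.11. In both genes the levels were lowest in CCL4 in both tertiles and the ratio was highest there. Between the tertiles this order was not seen in 3 other genes with an even excess. Sult2a8, a sulfotransferase, Gstm1, a glutathione transferase, and Aqp9, a glycerol channel, had ratios of 5.13, 2.67 and 2.94, of 2.26, 2.9 and 2.09 and of 3.05, 3.33 and 2.06. Split at a score of 0 the ratios were 3.94, 2.29 and 3.25, 2.21, 2.54 and 2.62, and 2.65, 2.77 and 2.87. For Gstm1 and Aqp9 the ratio was then largest in CCL4, with overlapping intervals in HFD and CCL4.

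Gene lists are described by the counts of their compared members and by their median log2 ratio. A gene of low level may be compared only through the tertile where it is high, so these counts and medians are a description, and a share near that of all genes in the same library (15.2% higher and 6.85% lower in CON, 16.5% and 13% in HFD, 3% and 1.46% in CCL4) says nothing about a list. Counts in CCL4 split at 0 are to be read against 16.5% higher and 9.95% lower among all genes split that way.

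Of the genes that receive or report Wnt signals, few reached the minimum of 20 CPM. Of 20 such genes 7 were compared in CON, 12 in HFD and 6 in CCL4. In HFD Lgr5, Tbx3, Rnf43, Notum, Lect2 and Fzd7 reached it in the upper tertile alone and Fzd4 in the lower tertile alone, and so did Tbx3 and Lect2 in the upper tertile of CON. These genes were compared only through the tertile where they are high, so no count or median over the list is given in the text. Its median in the figure of the lists carries the same limit. The values of single genes are a description. Tbx3, a transcription factor induced by β-catenin, was at 29 and 0.881 CPM in CON, 58.5 and 5.51 CPM in HFD and 4.34 and 0.267 CPM in CCL4. The lower tertile held 4, 7 and 1 UMIs, at or below the level in T cells (1.24, 11.6 and 0.964 CPM). Lgr5, the receptor for R-spondins that strengthen Wnt signals, was at 5.52 and 0.66 CPM in CON, 32.2 and 0 CPM in HFD and 0.394 and 0 CPM in CCL4, from 16 and 3 UMIs in CON, 33 and 0 in HFD and 1 and 0 in CCL4. Against the 3 UMIs that a count of 0 allows, Lgr5 had a ratio of 13.6 in HFD. With the counting error of 33 against 0 UMIs, the interval of its ratio started at 10.47. Axin2, a feedback inhibitor of the pathway, had 9 and 0 UMIs, 13 and 0 UMIs, and 5 and 2 UMIs in the 3 libraries, and its CPM in T cells was 9.44, 11.6 and 5.14 CPM, at or above the level of the upper tertile in CON and CCL4. Notum, a secreted Wnt deacylase, was at 8.97 and 1.54 CPM in CON, 25.4 and 1.57 CPM in HFD and 13 and 4.8 CPM in CCL4. Ctnnb1, β-catenin itself, was at 155 and 155 CPM in CON, 117 and 165 CPM in HFD and 177 and 178 CPM in CCL4, about equal between the tertiles of CON and CCL4 and with a ratio of 0.708 (0.561 to 0.89) in HFD. The other genes compared in HFD, Lgr4, Apc, Tcf7l2 and Lrp6 with Ctnnb1, were not past 1.5-fold.

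Pericentral landmarks outside the rule, a list of 26 genes, were higher in the upper tertile of CON in 21 of 21 compared members (median log2 ratio 2.60), of HFD in 22 of 22 (3.21) and of CCL4 in 12 of 16 (1.43), and 12 members were higher in each library. In CCL4 cells with a score above 0, 20 of 20 were higher than in the cells below 0 (2.42, all genes 0.15). The list and the score rest on the same biology. Several members, among them Cyp2a5, Lect2 and Tbx3 in CON and Lgr5 in HFD, were compared only through the tertile where they are high. That filter fixed part of these counts and medians, so they are a description. Nr1i3, the receptor CAR that induces P450s, was at 39.3 and 7.93 CPM in CON, 142 and 32.3 CPM in HFD and 54.8 and 15.7 CPM in CCL4. Ahr, the receptor that dioxin binds, was at 152 and 31.3 CPM in CON, 66.3 and 9.45 CPM in HFD and 39 and 22.1 CPM in CCL4. Por, the reductase that gives electrons to P450s, was at 228 and 105 CPM in CON, 304 and 150.4 CPM in HFD and 148 and 91.3 CPM in CCL4. Each of the 3 was higher in the upper tertile of all libraries. Cyp2a5, a coumarin hydroxylase, was at 49.7 and 1.32 CPM in CON, 515 and 31.5 CPM in HFD and 14.2 and 0.267 CPM in CCL4, and the lower tertile of CCL4 held 1 UMI of it.

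P450s outside the rule were higher in the upper tertile in 20 of 35 compared members in CON and lower in 2 (median log2 0.69), higher in 18 and lower in 5 of 35 in HFD (0.68), and higher in 10 and lower in 2 of 35 in CCL4 (0.31), or 17 and 2 of 37 split at 0 (0.43). In all, 10 genes were higher in each library. Besides the Cyp2c genes, Cyp3a11 and Por, they held Cyp4a10, which hydroxylates fatty acids, Cyp27a1, a sterol hydroxylase, and Cyp7a1. Members lower in the upper tertile were Cyp2a12 and Cyp2u1 in CON, the same with Cyp2c23, Cyp3a13 and Cyp4v3 in HFD, and Cyp17a1 and Cyp39a1 in CCL4. Conjugation enzymes, which attach glutathione, glucuronic acid or sulfate, were higher in 18 and lower in 3 of 30 in CON (0.73), in 16 and 3 of 34 in HFD (0.57) and in 5 and 0 of 29 in CCL4 (0.17), or 11 and 3 of 31 split at 0 (0.44). Gstm2 was at 110.4 and 5.72 CPM in CON, 142 and 15 CPM in HFD and 15 and 1.33 CPM in CCL4 and Gstm3 at 36.2 and 9.69 CPM in CON, 122 and 11 CPM in HFD and 8.28 and 1.87 CPM in CCL4. Sult1a1, a phenol sulfotransferase, ran the other way in CON and HFD, at 103 and 192 CPM and 118 and 210.2 CPM. In CCL4 it was at 169 and 205 CPM, not past 1.5-fold, and split at 0 its ratio was 0.973 (0.755 to 1.24). Enzymes of antioxidant defence were higher in 7 of 18 in CON (0.47), 9 of 19 in HFD (0.31) and 1 of 18 in CCL4 (0.19), with none lower. The gene higher in each library was Hmox1, haem oxygenase, at 168 and 38.1 CPM in CON, 31.2 and 18.1 CPM in HFD and 46.9 and 24.5 CPM in CCL4. Split at a score of 0, the list in CCL4 held 5 and 1 of 18 (0.36), and the ratio of Hmox1 was 3.26 in CON, 1.28 in HFD (0.808 to 2.01) and 0.884 in CCL4 (0.466 to 1.53). It was then past 1.5-fold in CON alone.

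Bile acid synthesis and transport was higher in the upper tertile in 11 and lower in 2 of 19 compared members in CON (median log2 0.65), in 10 and 1 of 20 in HFD (0.59) and in 5 and 1 of 22 in CCL4 (0.23), or 8 and 2 of 23 split at 0 (0.27). Cyp7a1, the rate-limiting enzyme of bile acid synthesis, was at 29.7 and 0.881 CPM in CON, 228 and 11 CPM in HFD and 217 and 32 CPM in CCL4. The upper tertile thus held about as much Cyp7a1 in CCL4 as in HFD and less in CON, the cells of CCL4 above 0 held 427 CPM, and the lower tertile stood below the T cells in each library (2.17, 34.9 and 39.5 CPM). Slco1b2, an uptake transporter of organic anions, was at 2322 and 408 CPM in CON, 2391 and 635 CPM in HFD and 1337 and 724 CPM in CCL4, with ratios of 5.69, 3.77 and 1.85. Slco1a1, another such transporter, was at 335 and 129 CPM in CON, 363 and 229.9 CPM in HFD and 20.5 and 4.27 CPM in CCL4, lowest in CCL4 in both tertiles. Abcc3, an export pump of the basolateral membrane, was at 70.4 and 44.9 CPM in CON, 222 and 141 CPM in HFD and 118 and 69.1 CPM in CCL4. Abcb11, the bile salt export pump, was among the genes lower in the upper tertile of CON and HFD.

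Among lipid genes, fatty acid oxidation and ketogenesis lay on the pericentral side. The list was higher in 14 and lower in 0 of 24 in CON (0.65), in 12 and 1 of 25 in HFD (0.58) and in 4 and 0 of 23 in CCL4 (0.23), and in CCL4 cells with a score above 0 in 14 and 0 of 26 (0.62). Cyp4a10, Acaa1b, Pdk4 and Vnn1 were higher in each library. Pdk4, a kinase that blocks pyruvate oxidation, was at 54.5 and 34.6 CPM in CON, 62.4 and 7.09 CPM in HFD and 24.1 and 14.7 CPM in CCL4, and split at a score of 0 its ratio in CCL4 was 1.41, under 1.5. Cpt1a, the entry enzyme of mitochondrial oxidation, was the member lower in the upper tertile of HFD. Of the lipid droplet genes 7 of 14 were higher and 1 lower in CON (0.56), 6 and 2 of 14 in HFD (0.50) and 1 and 0 of 13 in CCL4 (0.33), or 7 and 2 of 14 split at 0 (0.61). Fitm1, which helps to form droplets, was at 111 and 5.06 CPM in CON, 174 and 10.2 CPM in HFD and 41.4 and 4.8 CPM in CCL4. Cd36, a fatty acid transporter, was at 184 and 14.8 CPM in CON, 269 and 107 CPM in HFD and 208 and 141 CPM in CCL4, with ratios of 12.4, 2.51 and 1.47. Its upper tertiles differed less between the libraries than its lower tertiles.

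**Figure D3:**
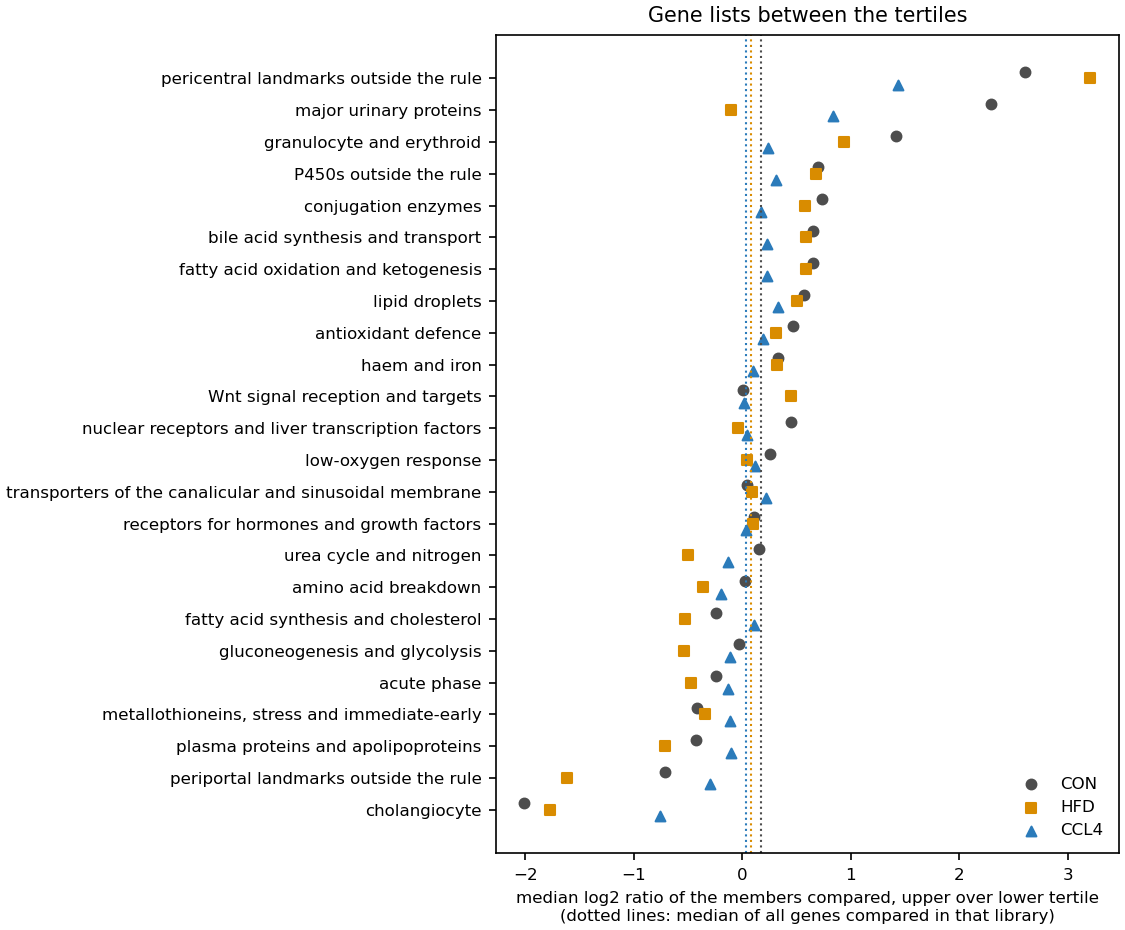
Median log2 ratio of upper over lower tertile (horizontal axis) for the compared members of each gene list (vertical axis) in CON, HFD and CCL4, with dotted lines at the median of all genes compared in that library. Pericentral landmarks, P450s, conjugation enzymes, bile acid and fatty acid oxidation genes lie to the right of these lines in each library, and periportal landmarks and plasma proteins to the left. Some members, as in the Wnt list and the pericentral landmarks, were compared only through the tertile where they are high.

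Synthesis of fatty acids and cholesterol had more lower than higher members in CON and HFD, with 2 members higher and 8 lower of 28 (−0.24) and 1 and 11 of 26 (−0.53), and 3 and 0 of 24 in CCL4 (0.11), or 4 and 5 of 25 split at 0 (0.02). Acly, which supplies acetyl-CoA, was at 149 and 324 CPM in CON, 160.0 and 480.3 CPM in HFD and 271 and 368 CPM in CCL4. Scd1, a fatty acid desaturase, was at 3798 and 2891 CPM in CON, 18397 and 20995 CPM in HFD and 7910.0 and 3987 CPM in CCL4. It was higher in the upper tertile in CCL4 alone by the fold used.

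Genes lower in the upper tertile were led by periportal landmarks and secreted proteins. Of 20 periportal landmarks, which include Alb, a gene of the rule that was not compared, 18 were compared in each library, and 9 were lower and 2 higher in CON (−0.71), 15 and 0 in HFD (−1.62) and 3 and 0 in CCL4 (−0.30), or 11 and 0 of 18 split at 0 (−0.66). Ctsc, a lysosomal peptidase, was at 18.3 and 525 CPM in CON, 8.78 and 236 CPM in HFD and 139.6 and 239 CPM in CCL4, with ratios of 0.0349, 0.0372 and 0.585. Cdh1, E-cadherin, was at 3.8 and 149 CPM in CON, 3.9 and 166 CPM in HFD and 11 and 22.7 CPM in CCL4. Etnppl, which breaks down phosphoethanolamine, was at 2.42 and 33.9 CPM in CON, 4.88 and 187 CPM in HFD and 199.5 and 426 CPM in CCL4. For each of these the upper tertile of CON and HFD was far below the lower tertile, whereas in CCL4 the tertiles were closer together. With the cells of CCL4 split at a score of 0 the gap was wider, with ratios of 0.154 for Ctsc, 0.116 for Cdh1, from 1 UMI above 0, and 0.116 for Etnppl. Split the same way, CON and HFD gave 0.0428 and 0.0697, 0.0368 and 0.0292, and 0.111 and 0.0997, and for Etnppl the intervals of the 3 libraries overlapped. Tat, an enzyme of tyrosine breakdown, was higher in the upper tertile of CON at 1646 against 1097 CPM.

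Osteopontin, Spp1, was at 25.5 and 447 CPM in CON, 15.6 and 53.5 CPM in HFD and 58 and 119.5 CPM in CCL4, with ratios of 0.0571 (95% interval 0.0446 to 0.072) in CON, 0.291 (95% interval 0.158 to 0.508) in HFD and 0.485 (95% interval 0.40 to 0.585) in CCL4. Its direction turned with a mitochondrial share of 0 to 30%, where the mean log2 ratio over the libraries was 0.92 in place of −2.32. Spp1 is also a marker of cholangiocytes, and T cells held 167, 143 and 78.1 CPM. Of the other genes with the most even deficit, Slc3a1, a subunit of a cystine transporter, was at 15.5 and 139.6 CPM in CON, 5.85 and 81.1 CPM in HFD and 58.4 and 108 CPM in CCL4. Serpina12, vaspin, was at 13.5 and 135 CPM in CON, 5.85 and 74 CPM in HFD and 144 and 217 CPM in CCL4, and Mug2, a protease inhibitor of plasma, at 45.6 and 217 CPM in CON, 30.2 and 141 CPM in HFD and 257 and 358 CPM in CCL4. In these genes the gap between the tertiles was smallest in CCL4, where the upper tertile had the highest level of the libraries. Split at a score of 0, the ratios in CON, HFD and CCL4 were 0.124, 0.119 and 0.132 for Slc3a1 and 0.24, 0.262 and 0.278 for Mug2, with overlapping intervals. They were 0.113, 0.160 and 0.383 for Serpina12. The cells of CCL4 above 0 held 13 CPM of Slc3a1, against 16.4 CPM in the cells of CON above 0. Serpina1e, an antitrypsin of plasma, was at 7764 and 11598 CPM in CON, 657 and 4569 CPM in HFD and 675 and 1429 CPM in CCL4. Hpx, the haem-binding protein hemopexin, was at 5412 and 12248 CPM in CON, 1863 and 6473 CPM in HFD and 3846 and 5509 CPM in CCL4. Serpina1e, Fos, Hpx, Gas2 and Mug2 were past 1.5-fold between the tertiles in 2 of the 3 libraries. Split at a score of 0, Mug2, Fos (0.395, 0.430 and 0.376), Hpx (0.451, 0.331 and 0.377) and Gas2 (0.136, 0.359 and 0.417) were past it in all 3. Lbp, which presents bacterial lipopolysaccharide, was past 1.5-fold between the tertiles in none, at 176 and 245 CPM in CON, 41 and 59.1 CPM in HFD and 54.4 and 80.05 CPM in CCL4. Split at a score of 0 its ratio was 0.729 in CON, 0.723 in HFD and 0.582 (0.331 to 0.954) in CCL4, there past 1.5-fold.

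Plasma proteins and apolipoproteins were lower in the upper tertile in 12 and higher in 1 of 43 in CON (−0.43), in 25 and 1 of 43 in HFD (−0.71) and in 2 and 0 of 43 in CCL4 (−0.11), or 13 and 1 of 43 split at 0 (−0.45). The 2 in CCL4 were Serpina1e and Mup20, a major urinary protein. The 1 higher was Apoc4 at 2636 against 1506 CPM in CON and 3357 against 1884 CPM in HFD. Apoa4, an apolipoprotein of triglyceride-rich particles, was at 459 and 2033 CPM in CON, 15.6 and 75.6 CPM in HFD and 855 and 982 CPM in CCL4. Split at a score of 0 its ratio was 0.251 in CON, 0.195 in HFD and 0.356 (0.299 to 0.421) in CCL4, past 1.5-fold in each. Stress and immediate-early genes with metallothioneins were lower in 9 and higher in 3 of 26 in CON (−0.42), in 9 and 3 of 25 in HFD (−0.35) and in 0 and 1 of 25 in CCL4 (−0.11), or 13 and 4 of 26 split at 0 (−0.63). Fos, an immediate-early transcription factor, was at 313 and 865 CPM in CON, 240.0 and 640.2 CPM in HFD and 688 and 1018 CPM in CCL4. Acute phase genes were lower in 4 and higher in 1 of 25 in CON (−0.24), in 9 and 3 of 24 in HFD (−0.47) and in 1 and 0 of 23 in CCL4 (−0.13), or 8 and 2 of 24 split at 0 (−0.27). Lcn2, lipocalin 2, was the member lower in each library.

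Lists of nitrogen and glucose metabolism had more lower genes in HFD than in CON, and the count in CCL4 depended on the split. The share lower among all genes was also larger in HFD (13%) than in CON (6.85%). Urea cycle and nitrogen genes were higher in 3 and lower in 3 of 17 in CON (0.15), in 2 and 8 in HFD (−0.51) and in 1 and 0 in CCL4 (−0.14), or 1 and 7 of 17 split at 0 (−0.52). The share higher in CON was near that of all genes (15.2%), and that in HFD was not above it (16.5%). Ass1, argininosuccinate synthetase, was at 379 and 785 CPM in CON, 475 and 1438 CPM in HFD and 2082 and 2584 CPM in CCL4, lower in the upper tertile of CON and HFD. Gluconeogenesis and glycolysis was higher in 1 and lower in 0 of 13 in CON (−0.04), in 1 and 9 of 18 in HFD (−0.54) and in 0 and 1 of 18 in CCL4 (−0.11), or 1 and 4 of 18 split at 0 (−0.30). Amino acid breakdown was higher in 6 and lower in 6 of 24 in CON (0.02), in 2 and 9 of 24 in HFD (−0.36) and in 0 and 2 of 26 in CCL4 (−0.20), or 0 and 7 of 25 split at 0 (−0.37). Haem and iron genes were higher in 7 and lower in 3 of 18 in CON (0.33), in 7 and 7 of 20 in HFD (0.32) and in 1 and 1 of 20 in CCL4 (0.10), or 2 and 2 of 20 split at 0 (0.19). The higher ones in CON included Alad, Urod, Cpox and Fech, enzymes of haem formation, with Hmox1 and Blvrb, which break haem down. The low-oxygen response, with shares near those of all genes in CON and HFD, was higher in 1 and lower in 0 of 8 in CON (0.25), in 2 and 1 of 11 in HFD (0.05) and in 0 and 0 of 10 in CCL4 (0.11), or 2 and 0 of 11 split at 0 (0.24).

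Nuclear receptors and liver transcription factors were higher in 10 and lower in 1 of 23 in CON (0.45), in 5 and 4 of 28 in HFD (−0.04) and in 2 and 0 of 29 in CCL4 (0.04), or 5 and 4 of 30 split at 0 (0.20). The shares in HFD were near those of all genes (16.5% higher, 13% lower). Esr1, the estrogen receptor, was the member lower in CON, at 23.5 and 90.9 CPM in CON, 7.8 and 32.3 CPM in HFD and 45 and 66.4 CPM in CCL4. The receptors for hormones and growth factors, also near the shares of all genes in HFD, were higher in 6 and lower in 2 of 14 in CON (0.11), in 2 and 2 of 12 in HFD (0.10) and in 0 and 0 of 11 in CCL4 (0.03), or 3 and 4 of 12 split at 0 (0.06). Avpr1a, the vasopressin receptor, was at 22.1 and 0.44 CPM in CON, 13.7 and 2.36 CPM in HFD and 0.789 and 1.87 CPM in CCL4, and 2 UMIs in the lower tertile of CON were set against 64 in the upper tertile. Ghr, the growth hormone receptor, was at 584 and 249 CPM in CON, 502 and 439 CPM in HFD and 712 and 697 CPM in CCL4, higher in the upper tertile of CON alone. Transporters of the canalicular and sinusoidal membrane were higher in 6 and lower in 3 of 17 in CON (0.05), in 6 and 5 of 19 in HFD (0.09) and in 3 and 0 of 18 in CCL4 (0.22), or 5 and 2 of 17 split at 0 (−0.01). The scaling to less abundant genes turned the sign of the median for the hormone receptors in CON (−0.02) and HFD (−0.44). It also did so for amino acid breakdown in CON (−0.10) and for these transporters in CON (−0.03). For the hormone receptors in HFD it gave 1 higher and 7 lower of 16, against 814 higher and 1153 lower of 6394 among all genes. Split at 0 they were higher in 0 and lower in 4 of 13 in HFD. Their shares were thus near those of all genes in the main setting and not in these.

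Major urinary proteins, pheromone carriers encoded by near-identical genes whose reads may be split among them, were higher in 9 and lower in 1 of 12 in CON (2.29), in 3 and 4 of 10 in HFD (−0.10) and in 4 and 2 of 7 in CCL4 (0.83), or 5 and 3 of 8 split at 0 (0.86). Mup11 was at 5192 and 99.5 CPM in CON, 624 and 64.6 CPM in HFD and 27.2 and 2.4 CPM in CCL4. Mup17 was at 3045 and 22 CPM in CON, 324 and 33.9 CPM in HFD and 7.49 and 3.47 CPM in CCL4, and its ratio of 138 in CON stood against 9.57 in HFD. Mup20 ran the other way at 7615 and 21158 CPM in CON, 7009.9 and 21182 CPM in HFD and 6934 and 11018 CPM in CCL4. The family thus held members with opposite zonal ratios in the same cells, and Mup11 and Mup17 were lowest in CCL4.

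Over 9 equal groups of hepatocytes ordered by the score, 9 genes were plotted, which were chosen after their values were seen. In CON and HFD their curves were steepest in the middle groups. In CON Cyp2c37 stood between 1.78 and 5.90 CPM in the 5 lowest groups and at 78.7, 215, 532 and 875 CPM in the 4 highest. In CCL4 it stayed between 3.97 and 19.2 CPM over the 7 lowest groups and reached 60.1 and 139 CPM in the eighth and the ninth. Hsd17b13, a lipid droplet protein, went the other way in CON, from 575 CPM in the lowest group to 15 CPM in the highest, whereas in CCL4 it was at 765 and 403 CPM. In CCL4 the 9 groups of Ctsc also differed mainly in the top group, at 58.2 CPM against 167 CPM in the eighth.

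**Figure D4:**
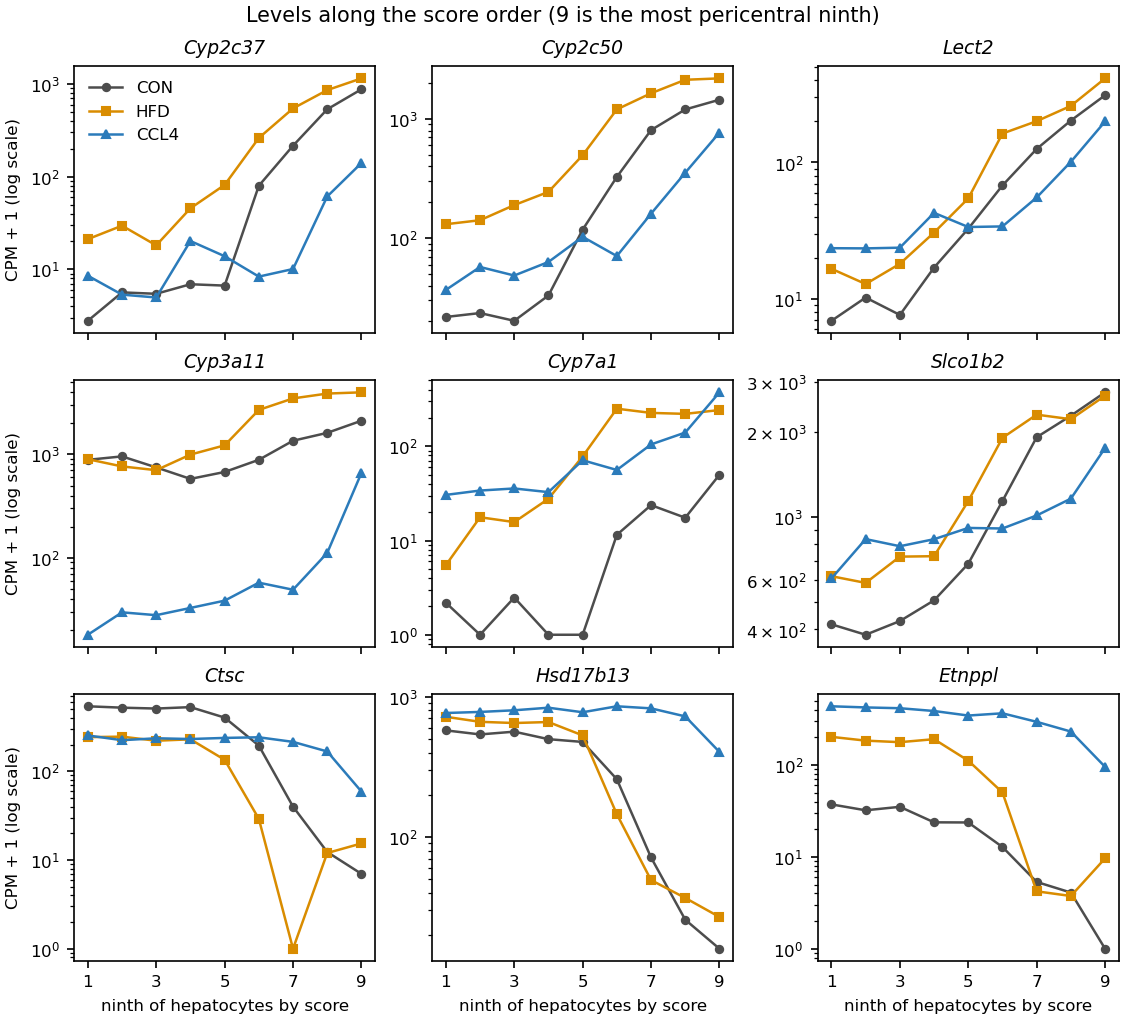
CPM plus 1 (log axis) in 9 equal groups of hepatocytes ordered by zone score (horizontal axis, 9 the most pericentral) for 9 genes in CON, HFD and CCL4, each point the summed UMIs of 1 group. In CON and HFD the curves are steepest in the middle groups, and in CCL4 those of Cyp2c37, Cyp3a11, Ctsc and Etnppl bend in the last groups.

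Markers of other cells were present at low levels in the upper tertile and partly moved with it. Granulocyte and erythroid markers, 14 genes, summed to 964 CPM in the upper and 345 CPM in the lower tertile of CON, 478 and 265 CPM in HFD and 306 and 306 CPM in CCL4. Their most abundant gene was Hbb-bs, β-globin, at 398 and 130 CPM in CON, and over hepatocytes with at least 100 UMIs of Alb, Apob and Cps1 the sums were 579 and 410 CPM in CON, 300.1 and 280.5 CPM in HFD and 295 and 313 CPM in CCL4. In the cells of CCL4 with a score above 0 the sum was 518 CPM. Of 5 members compared between the cells above and below 0, 3 were higher above 0 and 1 was lower. Hbb-bs stood at 246 CPM above and 125 CPM below 0, whereas Alas2 stood at 18.1 and 45.6 CPM. None of these 14 was at 0 in CON, and Ltf, Mpo and Elane were at 0 in HFD and CCL4. Lymphocyte markers summed to 47.3 and 35.7 CPM, 140.5 and 71.7 CPM, and 74.9 and 41.1 CPM, led by Ccl5 in CON and CCL4 and Ighm in HFD, with Cd4 at 0 in the upper tertile of CON and HFD. In the cells of CCL4 above 0 the sum of lymphocyte markers was 31.1 CPM. Ccl5 stood there at 10.4 CPM above and 34.0 CPM below 0, opposite to the tertiles. Kupffer cell markers summed to 15.9 and 5.06 CPM, 40.0 and 22 CPM, and 8.28 and 3.47 CPM, led by Lyz2, with Timd4 and Marco at 0 in each upper tertile. Endothelial markers summed to 12.8 and 9.03 CPM, 34.1 and 13.4 CPM, and 26 and 16.0 CPM, led by Fcgr2b, with Rspo3 and Wnt9b at 0 in each upper tertile. Stellate cell markers were at 5.18 and 2.20 CPM, 5.85 and 2.36 CPM, and 2.37 and 2.67 CPM, with Lrat, Col1a1 and Des at 0 in each upper tertile. Cholangiocyte markers were lower in the upper tertile at 246 and 997 CPM, 194 and 386 CPM, and 363 and 559 CPM, led by Tm4sf4, with Krt7, Cldn7 and Cldn4 at 0 in each upper tertile. Over hepatocytes with at least 100 UMIs of Alb, Apob and Cps1 their sums were 311 and 1001 CPM in CON, 389 and 394 CPM in HFD and 369.6 and 546 CPM in CCL4. In HFD the difference was then lost. Over the same hepatocytes lymphocyte markers summed to 38.0 and 34.2 CPM in CON, 78.3 and 66.3 CPM in HFD and 65.7 and 42.4 CPM in CCL4, closer together in HFD than before. Endothelial markers then summed to 6.74 and 7.54 CPM, 41.2 and 9.47 CPM, and 27.5 and 16.4 CPM, no longer higher in the upper tertile of CON. Kupffer cell markers summed to 8.52 and 5.22 CPM, 37.2 and 14.2 CPM, and 6.37 and 3.60 CPM. The part of these cells in the ratios between the tertiles was not tested.

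Within the upper tertile, HFD differed from CON at 2-fold or more in 377 genes that were higher (7.15% of 5271) and 381 that were lower (7.23%). CCL4 differed from CON in 389 higher (7.39% of 5262) and 399 lower (7.58%). Both comparisons used the same library CON. Scaling to less abundant genes gave 612 higher and 384 lower for HFD, taking the higher share of the differences from 49.7% to 61.4%, and 706 and 345 for CCL4, from 49.4% to 67.2%. It raised the median log2 ratio of all genes by 0.11 and 0.20. The upper tertiles were not cells of the same score, with medians of 1.49 in CON, 2.58 in HFD and −1.61 in CCL4. Both comparisons were repeated with the cells above 0, which gave 364 higher and 343 lower of 5248 for HFD. For CCL4 they gave 558 higher and 453 lower of 5414. The cells above 0 also differed in score, with medians of 0.742 in CCL4, 1.43 in CON and 2.20 in HFD. Their median of pericentral UMIs was 18 in CCL4 and 52 in CON.

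Acute phase genes and major urinary proteins were lower than in CON in both treated libraries. In HFD 23 of 26 were lower and 1 higher than in CON (median log2 −2.03, all genes 0.05), and in CCL4 20 were lower and 2 higher (−1.68, all genes −0.02), or 21 and 1 in the cells above 0 (−1.98). Among all genes 10.3% were higher and 8.37% lower in the cells of CCL4 above 0 than in those of CON. Major urinary proteins were lower in 10 of 12 in HFD (−2.41) and 9 of 12 in CCL4 (−2.96), with none higher. Saa1, a serum amyloid protein, was at 11018 CPM in CON, 713 CPM in HFD and 133 CPM in CCL4, and Saa2 at 11987 CPM in CON, 483 CPM in HFD and 58.4 CPM in CCL4. Lcn2 was at 1879 CPM in CON, 17.6 CPM in HFD and 24.8 CPM in CCL4, and Steap4, a metal reductase, at 1744 CPM in CON, 81 CPM in HFD and 179.8 CPM in CCL4. Mt1 and Mt2, metallothioneins, were at 4573 CPM in CON, 77.1 CPM in HFD and 386 CPM in CCL4 and at 2094 CPM in CON, 13.7 CPM in HFD and 132 CPM in CCL4. All 6 genes were highest in CON, and T cells of CON also held 6174 CPM of Saa1 and 4407 CPM of Mt1, above the T cells of HFD and CCL4. Treatment, library and the state of the control mice cannot be told apart in this difference.

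In the upper tertile of HFD, genes of fatty acid oxidation were higher than in CON in 7 of 25 and lower in 0 (0.64), and conjugation enzymes in 14 and 1 of 33 (0.47). Ehhadh, a peroxisomal oxidation enzyme, was at 78.3 CPM in CON, 596 CPM in HFD and 123 CPM in CCL4, a ratio of 7.61 for HFD over CON (6.52 to 8.9). Acaa1b was 8.3 times as high (7.67 to 8.98). Lpl, lipoprotein lipase, was at 4.14 CPM in CON, 136 CPM in HFD and 1.58 CPM in CCL4, a ratio of 32.7 (18.2 to 64.9), and the lower tertile of HFD held 2.36 CPM, so that in HFD Lpl was found on the pericentral side. Cyp2a5 was at 49.7 CPM in CON, 515 CPM in HFD and 14.2 CPM in CCL4, a ratio of 10.4 (8.6 to 12.5). Igkc, an antibody light chain that hepatocytes do not make, was at 20.7 CPM in CON, 286 CPM in HFD and 32.3 CPM in CCL4, and T cells of HFD held 2337 CPM of it. Pericentral landmarks were higher in 7 and lower in 1 of 22 (0.76), and gluconeogenesis and glycolysis genes in 6 and 1 of 17 (0.91). With a score above 0 these were 6 and 1 of 22 (0.66) and 7 and 1 of 17 (0.91). The part of the higher scores of HFD in these counts was not tested. Cholesterol and fatty acid synthesis held 5 higher and 10 lower of 28 (−0.12), where Fasn, Scd1, Acacb, Me1 and Thrsp were higher and the lower ones included Hmgcs1 and Dhcr7, enzymes of cholesterol formation. Scd1 was at 3798 CPM in CON, 18397 CPM in HFD and 7910.0 CPM in CCL4, and Hmgcs1, a cholesterol synthesis enzyme, at 2263 CPM in CON, 553 CPM in HFD and 273 CPM in CCL4.

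In the upper tertile of CCL4, pericentral landmarks were lower than in CON in 10 and higher in 1 of 21 (−0.98), and periportal landmarks higher in 11 and lower in 0 of 17 (1.29). In the cells with a score above 0 these were 4 and 2 of 21 (−0.14, all genes 0.11) and 7 and 0 of 17 (0.81). Both medians were smaller in size there. Among all genes 10.3% were higher and 8.37% lower in that comparison. Cyp2c37 was still at 0.376 times and Cyp2c54 at 0.267 times the level of CON. Gluconeogenesis and glycolysis held 14 higher and 1 lower of 18 (1.62), or 15 and 1 with a score above 0 (1.30). Urea cycle genes were higher in 8 of 17 (0.73) and amino acid breakdown in 10 of 24 (0.74), with none lower in either, or in 5 of 17 (0.85) and 9 of 24 (0.79) with a score above 0. Hamp2, a relative of the iron hormone hepcidin, was at 1.04 CPM in CON, 43.9 CPM in HFD and 909 CPM in CCL4, from 3 UMIs in CON, a ratio of 878 (300.1 to 4262), and the cells above 0 held 826 CPM. Cyp2b9, a P450 induced through CAR, was at 2.42 CPM in CON, 9.75 CPM in HFD and 118 CPM in CCL4, and the cells above 0 held 181 CPM. G0s2, an inhibitor of lipolysis, was at 69.7 CPM in CON, 232 CPM in HFD and 696 CPM in CCL4, below the T cells of each library (168, 309 and 891 CPM). Fabp5, a fatty acid binding protein, was at 521 CPM in CON, 466 CPM in HFD and 3.55 CPM in CCL4, lower in CCL4 than in its T cells (34.4 CPM). Cholesterol and fatty acid synthesis was lower in 13 and higher in 6 of 28 (−0.87), or in 11 and 6 with a score above 0 (−0.44).

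The upper tertiles of CCL4 and HFD were also set against each other, with 324 of 5295 genes (6.12%) higher and 340 (6.42%) lower in CCL4 at 2-fold. The genes named here were chosen after their values were seen. Serpina12 was 24.6 times (11.2 to 67.4) and Etnppl 40.9 times (17.4 to 127) as high in CCL4 as in HFD, and Aqp8, a water channel, 6.23 times (4.4 to 9.09). Lower in CCL4 were Cyp2a5, at 0.0276 times the level of HFD (0.0191 to 0.0387), and Pltp, a phospholipid transfer protein, at 0.0434 times (0.0225 to 0.0771). With the cells above 0 in both libraries these gaps were smaller, at 72.5 CPM in CCL4 and 10.4 CPM in HFD for Serpina12, 41.4 and 17.8 CPM for Etnppl and 158 and 42.2 CPM for Aqp8. Cyp2a5 was then at 51.8 and 449 CPM and Pltp at 7.77 and 113 CPM. The directions were those of the tertiles. Arrdc3, an arrestin-like protein, was near the same level in both upper tertiles, at 27.6 CPM in CON, 251 CPM in HFD and 259 CPM in CCL4, with 376 and 244 CPM in the cells of CCL4 and HFD above 0, and higher than in CON in both treated libraries.

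**Figure D5:**
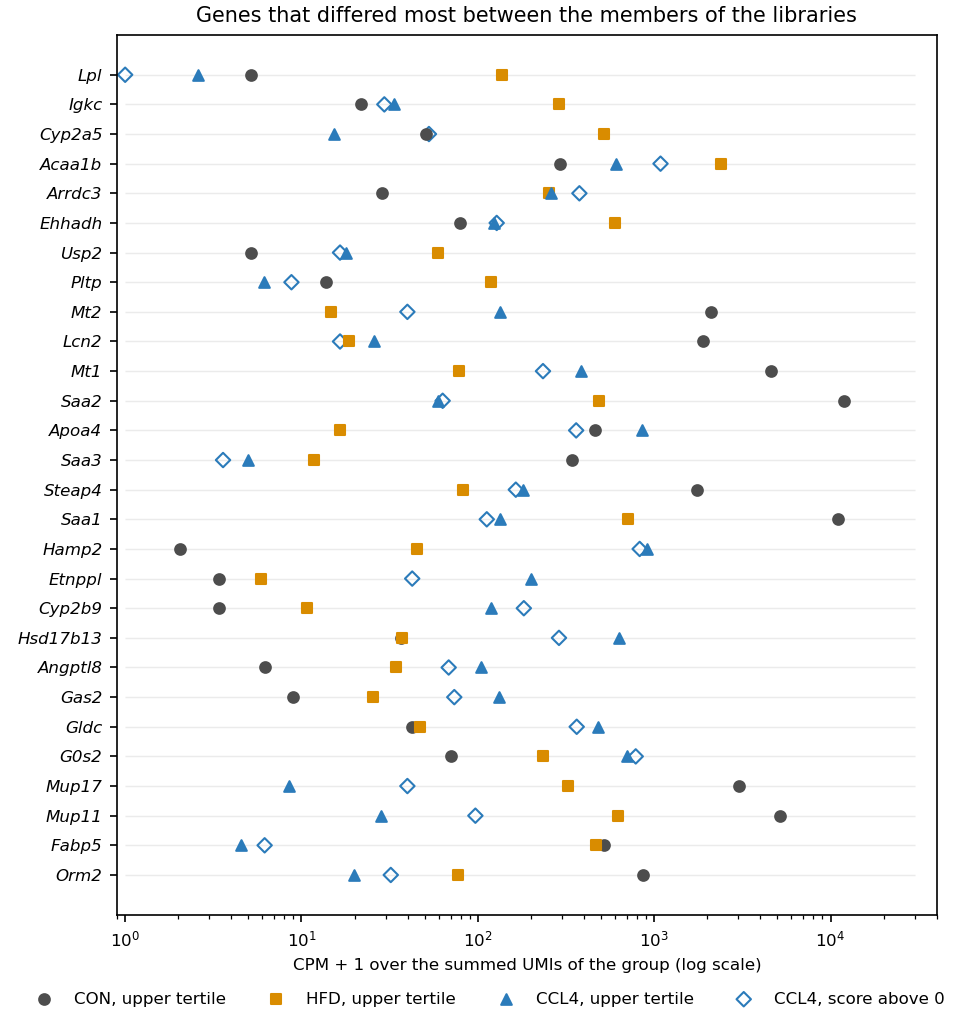
CPM plus 1 (log axis) of the genes that differed most between the upper tertiles of HFD or CCL4 and that of CON, with the CCL4 cells of score above 0 as open diamonds, each point the summed UMIs of a group. Saa1, Saa2, Lcn2, Mt1, Mt2 and Steap4 are highest in CON, Lpl in HFD, and Hamp2 in CCL4, where the cells above 0 lie close to the upper tertile.

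The ratio between the tertiles itself differed between the libraries. It was compared for genes with at least 50 CPM in 1 tertile of both libraries, with 5 CPM added, which leaves out genes such as Ccnd1 in HFD and Mup17 and Cdh1 in CCL4. Among these genes, relative to CON, it was most raised in HFD for Spp1, Pdk4, Saa2, Arl4a, a small GTPase, and Fam25c, and most lowered for Mup17, Mup11, Serpina1e, Wsb1 and the chemokine Cxcl1. Saa2 was at 11987 and 11033 CPM in CON and at 483 and 131 CPM in HFD. In CCL4, within the same limit, it was most raised for Ctsc, Hsd17b13, Spp1, Cyp3a11 and Serpina12, and most lowered for Cyp2c37, Cd36, Cyp2c50, Rgn and Cyp2c54. Hsd17b13 was at 35.9 and 559 CPM in CON, 36.1 and 678 CPM in HFD and 633 and 778 CPM in CCL4, higher in the upper tertile of CCL4 than in those of CON and HFD. With cells split at a score of 0 its ratio in CCL4 was 0.372, against 0.0825 in CON and 0.110 in HFD.

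Bdnf, the neurotrophic factor that the study followed, was near the limit of detection in these cells. It was at 1.73 and 3.08 CPM in CON, 6.83 and 17.3 CPM in HFD and 5.13 and 5.07 CPM in CCL4, from 5 and 14, 7 and 22, and 13 and 19 UMIs. T cells held 0.464, 3.96 and 1.29 CPM of Bdnf. Tlr4, a receptor for bacterial lipopolysaccharide that the study also followed, had no UMI in either tertile of any library, which allows up to 1.04 CPM in CON, 2.93 CPM in HFD and 1.18 CPM in CCL4 in the upper tertiles.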

How the data were processed

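Per the file headers and the methods, Cell Ranger 7.2.0 made the matrices, in which the authors deposited unnormalized counts of UMIs for every gene and barcode. The methods name the genome mm10, the submitters' processing notes GRCm39 and Seurat, and no coordinate of the counts was used. The files list 55357 features, and the number of unused sample columns was 0. Promoters were read from RefSeq tables of GRCm38.p6.

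UMIs were summed over the cells of a tertile and divided by the summed total (CPM). Genes with at least 20 CPM in 1 group were compared, at a ratio of 1.5 between tertiles and 2 between libraries. Ratios against 0 used 3 counts, with no p-value anywhere. Named genes outside the rule were the 15 highest and 15 lowest by the least extreme ratio of CPM plus 5, with at least 50 CPM in 1 tertile of every library. They were also the 8 highest and 8 lowest between libraries, with 50 CPM in 1 of the 2, and the 5 whose zonal ratio rose or fell most from CON, with 50 CPM in 1 tertile of both. Within each list they were the extremes and the most abundant with at least 20 CPM in 1 tertile of a library. Bdnf, Tlr4 and the Wnt and marker genes were named at any level. Of 630 list genes 628 were in the files. Some genes that this rule names are not reported here. The members, the lists and the rule were chosen with earlier results of these data known. T cells had at least 2 UMIs over Cd3d, Cd3g, Trac and Trbc2 and were not hepatocytes by the rule. The limit of fewer than 20 hepatocyte UMIs that had been planned for them left 1762 T cells in CON and none in HFD or CCL4, and was dropped. Doublets were not called. An alternative left out the 8% of cells with the most UMIs. Other alternatives were the scaling, the mean of CPM per cell, the mitochondrial limits of 5 to 30% and 0 to 30%, quartiles in place of tertiles, scores from cells thinned to 1500 UMIs or without Cyp2e1 and Cyp2f2, keeping cells with markers of other types, the minimum CPM and the fold. Scores above and below 0 and at least 100 hepatocyte UMIs were added after the data had been seen. The calls were tested on simulated data. Depth was 2897516 UMIs in the upper and 4542237 in the lower tertile of CON, 1025120 UMIs in the upper and 1269969 in the lower tertile of HFD and 2536018 and 3747736 in CCL4. Python 3.11.15, numpy 2.4.6, scipy 1.17.1, pandas 2.3.3 and matplotlib 3.10.9 were used.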

Additional observations from a re-analysis of the deposited data

Results flagged for a closer look

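Zonal ratios past 1.5-fold in opposite directions were found between CON and HFD in 12 genes higher in CON and lower in HFD and 6 the other way, between CON and CCL4 in 2 and 4, and between HFD and CCL4 in 0 and 9, and these differences were not tested. Among them, the rule for named genes took Ccnd1, Il1r1, Tat and Arl4a, which are described here. Ccnd1, cyclin D1, a G1 cyclin that β-catenin can induce, was at 82.8 and 18.1 CPM in CON, 18.5 and 39.4 CPM in HFD and 152 and 70.7 CPM in CCL4 in the upper and lower tertile. Its ratio was 4.59 in CON, 0.471 in HFD and 2.15 in CCL4. T cells held 42.2, 44.3 and 59.8 CPM, and Pcna was the other member of 22 cell cycle genes that reached 20 CPM. Il1r1, the interleukin 1 receptor, was at 231 and 366 CPM in CON, 25.4 and 14.2 CPM in HFD and 15 and 11.7 CPM in CCL4, a ratio of 0.63 in CON and 1.79 in HFD. Tat was at 1646 and 1097 CPM in CON, 711 and 1228 CPM in HFD and 1847 and 2400.1 CPM in CCL4, a ratio of 1.5 in CON and 0.579 in HFD. Arl4a was at 46.2 and 78.2 CPM in CON, 59.5 and 34.6 CPM in HFD and 83.2 and 76.8 CPM in CCL4, a ratio of 0.592 in CON and 1.72 in HFD. Of these, the interval in HFD was 0.944 to 3.46 for Il1r1, 1.15 to 2.59 for Arl4a, 0.53 to 0.633 for Tat and 0.262 to 0.813 for Ccnd1. With cells split at a score of 0 none of the 4 was past 1.5-fold in opposite directions in CON and HFD or in HFD and CCL4, with ratios of 2.30, 0.973 and 1.33 for Ccnd1 in CON, HFD and CCL4, and of 0.644 and 1.46 for Il1r1, 1.44 and 0.616 for Tat and 0.621 and 1.42 for Arl4a in CON and HFD. Over 9 equal groups of hepatocytes ordered by score, Ccnd1 was highest in the middle in CON and HFD, at 146 CPM in group 7 of CON against 21.9 CPM in group 9, and at 134 CPM in group 6 of HFD against 5.75 CPM in group 9, so that its ratio between tertiles does not describe its course in these libraries. In CCL4 it was highest at the top, at 59.6 CPM in group 1 and 188 CPM in group 9.

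Albumin RNA in T cells, which lie outside the comparisons of hepatocytes, was at 17317 CPM in HFD and 36192 CPM in CCL4, against 5072 CPM in CON. The part of this free RNA in each hepatocyte value was not tested.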

How the results depend on the processing

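No paired analysis was possible because each condition had 1 library. Limits are the single library per condition, the free hepatocyte RNA measured in T cells and the depth, which at 20 CPM leaves the fewest UMIs in HFD. Main counts are given in the text above. The cause was not tested for any value that moved.

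Scaling to less abundant genes gave 628, 1153 and 130 genes lower in the upper tertile of CON, HFD and CCL4, 228 higher in CCL4 and 38 lower in each library, with 612 genes higher in HFD and 706 in CCL4 than in the upper tertile of CON. A mitochondrial share of 5 to 30% gave 281 genes higher and 170 lower in CCL4. A share of 0 to 30% gave 435 higher and 156 lower in CON, 290 and 77 in HFD and 422 and 427 in CCL4, with 7 periportal landmarks lower in CCL4, and reversed the mean log2 ratio of Spp1 to 0.92. Quartiles gave 40 genes lower in each library and 114 lower in CCL4. Scores above and below 0 gave 161 genes higher and 79 lower in each library, 878 and 530 in CCL4, 20 pericentral landmarks higher and 11 periportal landmarks lower there. At least 100 hepatocyte UMIs gave 15 genes lower in each library.

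A minimum of 5 CPM gave 126 genes higher and 61 lower in each library, 1332 and 833 in CON, 1634 and 1534 in HFD and 641 and 359 in CCL4, and between upper tertiles 930 and 757 for HFD and 940 and 667 for CCL4 over CON. A minimum of 100 CPM gave 19 and 2 in each library, 256 and 115 in CON, 308 and 201 in HFD, 31 and 12 in CCL4 with 7 pericentral landmarks higher, and 96 and 171 for HFD and 151 and 190 for CCL4 over CON. A fold of 2 between tertiles gave 25 and 4 in each library, 225 and 142 in CON, 300 and 250 in HFD and 42 and 12 in CCL4. A fold of 1.5 between libraries gave 1033 and 820 for HFD and 882 and 912 for CCL4. Leaving out 1 library at a time moved the genes higher in all remaining libraries between 78 and 351 and those lower between 28 and 160, the largest without CCL4 replicate 1.

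Of the other values, 194 counts stayed within 1.5 times the reported count and 306 values of single genes changed little, and 23 values of single genes moved without a change of direction.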

Other observations

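Heat-shock and haem genes gave further values. Hspa1b, an inducible chaperone, was at 46.6 and 18.7 CPM in CON, 42.9 and 16.5 CPM in HFD and 18.1 and 12.3 CPM in CCL4 in the upper and lower tertile, below the T cells in every tertile (383, 165 and 51.1 CPM). Cpox, an enzyme of haem formation, was at 340.3 and 80.4 CPM in CON, 314 and 145 CPM in HFD and 184 and 159 CPM in CCL4, and Blvrb, biliverdin reductase B, at 122 and 35.4 CPM in CON, 347 and 67.7 CPM in HFD and 77.7 and 55.5 CPM in CCL4. Both were higher in the upper tertile of CON and HFD and not past 1.5-fold in CCL4, where cells split at a score of 0 gave ratios of 1.36 for Cpox and 1.68 for Blvrb. Cp, the copper-carrying ceruloplasmin, was at 2104 and 3479.8 CPM in CON, 682 and 1244 CPM in HFD and 1035 and 1229 CPM in CCL4, lower in the upper tertile of CON and HFD.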
